A study of Homo sapiens with 4 samples.

Results

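HT29 and Colo205 are established human colon cancer cell lines. They are compared here in their parental state, without drug selection, on 1 expression array each. The series also holds 1 array for a derivative of each line, HT29RC and Colo205RC, both of which had acquired resistance to PLX4720, a kinase inhibitor, by growth in rising amounts of it and had been kept free of it for 24 h before harvest. All 4 cultures were grown in dishes in medium with 10% serum, and total RNA was labelled with biotin. The labels give no passage number, and they do not say whether cultures were independent. With 1 array a side there is no replicate and no test, so every difference below describes these arrays. HT29RC and Colo205RC are shown beside the parents as further arrays of the same lines, and they are not replicates, because their drug history differs. The comparison covered genes of the 22 autosomes. Of 18991 such genes with a probe set that names them alone, 12807 read at or above 5.73 on the log2 scale in at least 1 parental array. That value, the median of the whole table, is called the filter value below, and 6184 genes stayed under it in both parents.

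The lining of the colon is renewed from stem cells at the base of the crypt, which depend on WNT signals and carry LGR5 and ASCL2. Their progeny become absorptive colonocytes, marked by KRT20, villin and carbonic anhydrases, or secretory cells, marked by mucins and trefoil peptides. Colon cancer lines keep different portions of these programmes, and they also differ in the signalling, adhesion and metabolic genes they express.

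A difference below is always the parental HT29 reading minus the parental Colo205 reading on the log2 scale, so that 1 is a 2-fold and 2 a 4-fold difference and negative values are higher in Colo205. Over the 12807 genes the median difference was -0.01 and the SD 1.09. At 2-fold or more, 922 genes were higher in HT29, which is 7.2% of the genes, and 1515 were higher in Colo205, which is 11.8%. Counted in either direction, 2437 genes, or 19.0%, differed 2-fold. At 4-fold or more the counts were 283 genes higher in HT29 (2.21%) and 537 higher in Colo205 (4.19%), or 820 (6.4%) in either direction. At 16-fold or more they were 65 genes (0.508%) and 123 genes (0.96%). The list counts that follow are to be read against these shares. A gene can stand in several lists. Where a line has a pair of readings below, the parent stands first and its derivative second.

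Many of the largest differences set a clear reading in one line against a reading under the filter value in the other. This was so for 138 of the 283 genes at 4-fold higher in HT29 and for 282 of the 537 higher in Colo205. The size of such a difference is not exact. For some genes it is given below also with the low reading raised to the filter value, which makes it smaller. Where a gene had several probe sets, they gave the same direction for 143 of 150 genes at 4-fold higher in HT29 and for 213 of 236 higher in Colo205. The spread of the difference between probe sets of 1 gene had an SD of 0.52 over 6198 genes, and of 0.40 over the 5347 genes with both parental readings at or above the filter value. This spread is between probe sets on the same arrays and says nothing of repeat cultures. Of the genes named below without their range, IL1RN, MTAP, CAV2, CEACAM5, MUC5AC, HSPG2, AGRN, PTGS1, LGR4, FAS, PTGES, BCL2L11, SREBF1, PRF1, VIL1, FUT6, ERAP1 and BMP7 also had a probe set with a difference of the same sign and under 0.5 in size. Between the derivatives, 277 of the 283 genes and 523 of the 537 genes had the same direction as between the parents, and 208 and 341 of them again reached 4-fold.

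**Figure D1:**
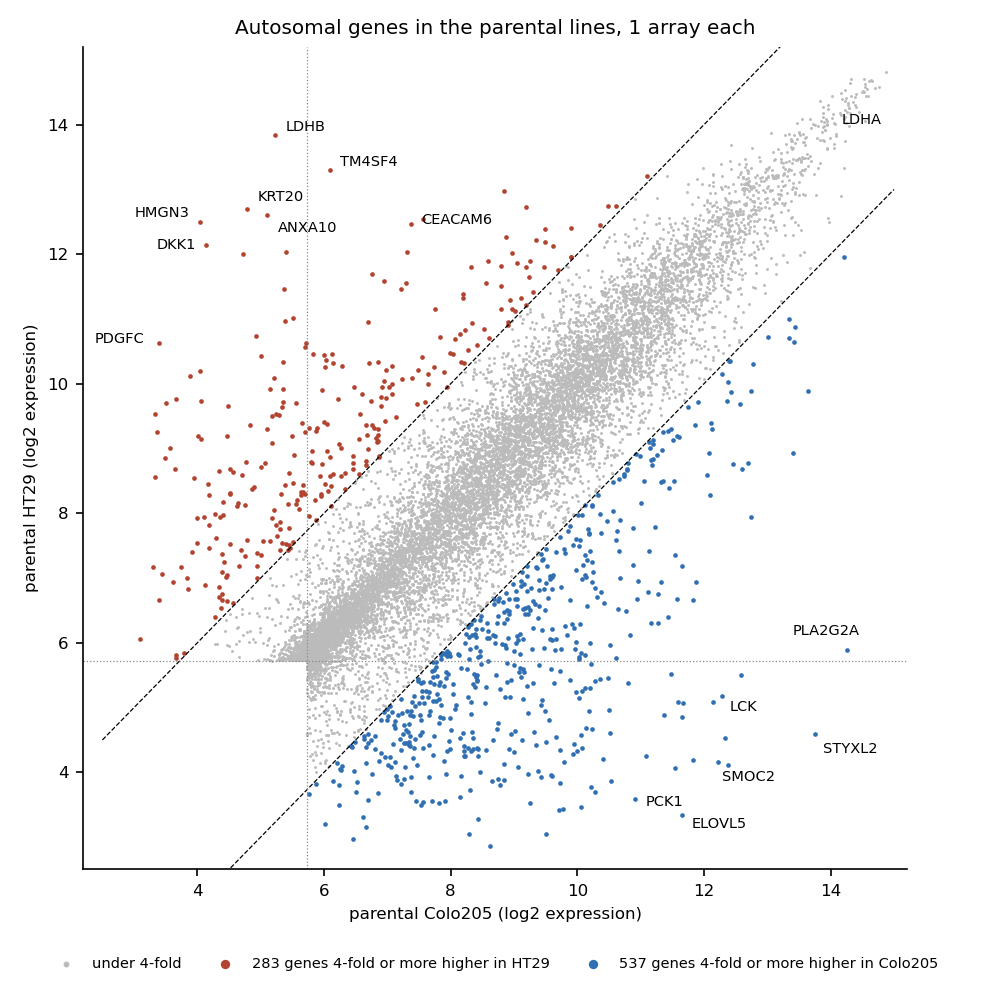
Log2 expression of 12807 autosomal genes in parental Colo205 (horizontal) and parental HT29 (vertical), 1 array each, with dashed lines at 4-fold and dotted lines at the filter value of 5.73. Red points are the 283 genes 4-fold or more higher in HT29 and blue points the 537 higher in Colo205, and many of both colours lie beyond a dotted line on their low side.

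The arrays were alike in level. The parental array medians were 5.72 and 5.699, and 0 of 23 widely expressed reference genes differed 2-fold. How the arrays were scaled was not stated, so these levels cannot show that the RNA inputs were alike. The 18 hybridisation control probe sets had a median difference of -0.08. The 24 poly-A control probe sets, for transcripts added to the RNA before labelling, all read lower in HT29, with a median of -0.50 and a range from -0.79 to -0.32. The part of that offset in the gene results was not tested. The actin control transcript read higher at its 3' end than at its 5' end, by 2.77 in HT29 and 2.88 in Colo205. For the GAPDH control this was 0.53 in HT29 and 0.52 in Colo205. Whether this end bias adds to the disagreement between probe sets was not tested.

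Both arrays carried general markers of epithelium. EPCAM, an epithelial adhesion protein, read 13.93 in HT29 and 13.91 in Colo205. E-cadherin, CDH1, read 12.66 in HT29 and 13.22 in Colo205, a difference of -0.56. The keratins of simple epithelium were strong in both lines, with KRT8 at 13.29 in HT29 and 12.67 in Colo205 and KRT18 at 14.71 in HT29 and 14.32 in Colo205. These genes did not separate the lines by 2-fold. Of 37 epithelial adhesion and polarity genes past the filter, 4 were 2-fold higher in each line, a share of 21.6% beside 19.0% for all genes. VIM, the intermediate filament of mesenchymal cells, stayed close to the filter value, at 5.75 in HT29 and 5.50 in Colo205. Intestinal markers were high in part and low in part. The homeobox factor CDX2 lay under the filter value in both parents, at 5.17 in HT29 and 5.66 in Colo205. CDH17 and FABP1 lay under it in parental HT29, as given below. VIL1 read 10.42 in HT29 and 12.02 in Colo205, and LGALS4 read 12.81 in HT29 and 12.19 in Colo205. Of 33 absorptive genes measured, 16 read at or above the filter value in HT29 and 15 in Colo205.

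Markers of other cell types were mostly low. Of 19 fibroblast, endothelial and muscle genes, 10 passed the filter and 0 differed 2-fold, and the HT29 readings lay between 3.72 and 7.45 and the Colo205 readings between 3.53 and 7.23. Of 19 leukocyte genes, 9 passed, and the defining genes PTPRC, CD3D, CD3E and CD2 lay under the filter value in both parents, between 3.91 and 5.55. Of these 9, 3 were 2-fold higher in Colo205 and 1 in HT29. The HT29 gene was CD14, a receptor for bacterial lipopolysaccharide, at 6.74 in HT29 and 5.60 in Colo205. GZMA, a granule protease of killer lymphocytes, read 3.87 and 3.68 in HT29 against 10.53 and 3.98 in Colo205. It was high in parental Colo205 and under the filter value in the other 3 arrays. POU2AF1, a B-cell coactivator, read 7.58 and 5.54 in HT29 against 10.05 and 6.51 in Colo205, and PRF1, which encodes perforin, read 6.38 in HT29 and 7.94 in Colo205. In RNA from a whole culture, fewer cells of a type and less RNA per cell cannot be told apart, here and in every comparison below.

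The absorptive programme was split between the lines. KRT20, the keratin of mature colonocytes, read 12.69 and 14.28 in HT29 against 4.79 and 3.95 in Colo205. Its parental difference was 7.90, or 6.97 with the low reading raised to the filter value, and both HT29 arrays stood far above both Colo205 arrays. CA2, a carbonic anhydrase of the colonocyte cytoplasm, had the same pattern and read 9.19 and 8.81 in HT29 against 4.46 and 4.30 in Colo205. On the other side, CDH17, the liver-intestine cadherin, read 5.30 and 11.24 in HT29 against 10.12 and 11.49 in Colo205. FABP1, the fatty acid carrier of the small bowel and liver, read 4.60 and 6.89 in HT29 against 8.95 and 6.78 in Colo205. For both genes only parental HT29 read under the filter value. VIL1, the actin bundler of microvilli, was high in both lines and differed by -1.59, and LGALS4, a galectin of the gut lining, by 0.62. Of the 19 absorptive genes past the filter, 2 were 2-fold higher in HT29 and 5 in Colo205, with a median difference of -0.17 between the parents and 0.06 between the derivatives. SI, SLC26A3, MS4A12 and AQP8 mark fully mature absorptive cells. They were among the 14 of 33 measured absorptive genes that lay under the filter value in both parents.

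Secretory genes were also divided. AGR3, a disulfide isomerase of secretory cells, read 10.46 and 11.92 in HT29 against 6.13 and 6.83 in Colo205. Its relative AGR2 was near the top of the scale in both parents, at 13.46 in HT29 and 13.53 in Colo205. REG4 and the gastric mucin MUC5AC were higher in HT29, by 2.45 and 2.01, and by 1.69 and 0.54 between the derivatives. The trefoil peptide TFF3, which goblet cells secrete with mucus, went the other way and read 8.68 and 8.50 in HT29 against 12.61 and 11.50 in Colo205. Among the membrane mucins, MUC1 read 6.68 and 6.24 in HT29 against 11.57 and 10.99 in Colo205, and both Colo205 arrays were higher than both HT29 arrays. MUC13 was also higher in Colo205, at -2.08. MUC20 differed by -2.13 at its strongest probe set, while its 4 probe sets ran from -2.75 to 0.64. Of 9 mucins past the filter, 1 was 2-fold higher in HT29 and 3 in Colo205. MUC2, the main gel-forming mucin of the colon, read 6.42 in HT29 and differed by 0.42, and ATOH1, the factor that specifies secretory cells, was under the filter value in both. Among goblet and secretory genes, of 22 past the filter, 6 read 2-fold or more higher in HT29 and 3 in Colo205, with a median difference of 0.46, and 0.49 between the derivatives.

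Genes of Paneth cells and of the stomach differed in both directions. The secreted phospholipase PLA2G2A, a Paneth cell product, differed by -8.37, and resistant Colo205 was as high as its parent, at 14.26. PRSS2, a trypsinogen, read 8.94 in HT29 and 13.41 in Colo205, but the derivatives differed by only -1.29. MMP7, the matrix protease that activates defensins in mice, was instead higher in HT29 and read 10.56 and 11.99 in HT29 against 5.699 and 6.40 in Colo205. ANXA10, an annexin of gastric epithelium, read 12.60 and 12.73 in HT29 against 5.10 and 6.28 in Colo205, high in both HT29 arrays. VSIG2, a surface protein of stomach and colon, differed by 3.71, and CTSE, gastric cathepsin E, by 2.42. Of 13 genes of stomach, bile duct and pancreas past the filter, 5 were 2-fold higher in HT29, and 3 of these again between the derivatives. PGC, the stomach proenzyme progastricsin, and CEL, a pancreatic lipase, were higher in Colo205, at -1.496 and -1.94, and did not reach 2-fold between the derivatives. Of 9 Paneth cell genes past the filter, 1 was 2-fold higher in HT29 and 3 in Colo205. Enteroendocrine genes were sparse, with 6 of 20 past the filter and 1 that differed 2-fold.

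Transcription factors of the gut held members at a like level and members that set the lines apart. GATA6, a factor of endoderm, read 10.83 in HT29 and 10.81 in Colo205. FOXA1, a pioneer factor of endoderm, read 9.37 and 8.37 in HT29 against 6.05 and 5.77 in Colo205, and ONECUT2 and NR5A2, factors of liver, pancreas and gut, were higher in HT29 by 3.94 and 2.69. PROX1, a homeobox factor that WNT signals induce in colon tumours, read 5.77 and 5.13 in HT29 against 10.61 and 10.77 in Colo205. The coactivator PPARGC1A, known for driving mitochondrial genes, read 5.11 and 4.84 in HT29 against 9.44 and 9.17 in Colo205. Both were high in the Colo205 arrays and close to or under the filter value in the HT29 arrays. In the list, of 28 past the filter, 7 read 2-fold or more higher in HT29 and 4 in Colo205, with a median difference of 0.30, and 0.23 between the derivatives.

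HOX genes, which record position along the body axis, were higher in HT29 wherever they differed 2-fold. This held for 7 of 16 members past the filter, with 0 higher in Colo205, beside background shares of 7.2% and 11.8%. HOXB9 read 10.41 and 8.88 in HT29 against 7.55 and 6.10 in Colo205. HOXB8 differed by 2.34, HOXB3 by 1.86, HOXB6 by 1.23 and HOXB5 by 1.29, so 5 of the 7 genes belong to the HOXB cluster on chromosome 17. HOXB1, HOXB2, HOXB4, HOXB7 and HOXB13 of the same cluster did not reach 2-fold, with differences between -0.84 for HOXB13 and 0.21 for HOXB7. Outside it, HOXC4 differed by 2.84 and HOXA2 by 1.71. Neighbouring genes of a cluster are not independent of each other. Of the 7 genes, 5 again differed 2-fold between the derivatives.

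**Figure D2:**
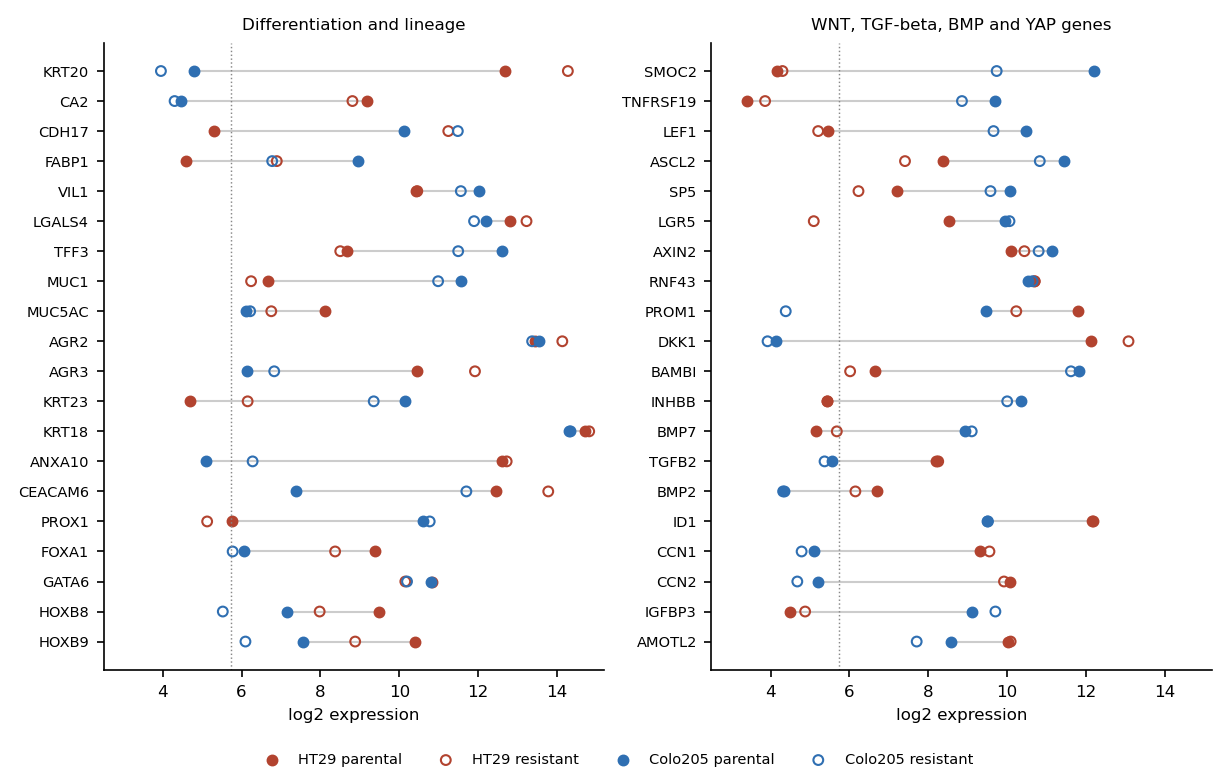
Log2 expression of 20 differentiation and lineage genes (left) and 20 WNT, TGF-beta, BMP and YAP genes (right) in each of the 4 arrays, filled for parental and open for resistant, with a dotted line at the filter value of 5.73 and a grey line joining the parents. KRT20, ANXA10 and DKK1 are high in both HT29 arrays, SMOC2, TNFRSF19 and BAMBI in both Colo205 arrays, and for CDH17 parental HT29 stands apart.

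Stem cell genes and WNT targets leaned to Colo205. Of 21 members past the filter, 9 read 2-fold or more higher there and 1 in HT29, and the median difference was -0.81, and -1.28 between the derivatives. Of the 9, 8 again reached 2-fold between the derivatives. SP5, a repressor that WNT signals induce, is shown by its promoter because the window holds 3 matches to the core letters bound by TCF and LEF factors. The matches, TCAAAG on either strand, are in capitals in the RefSeq sequence of GRCh38.p14 (chr2:170715087-170715386, plus strand).
SP5: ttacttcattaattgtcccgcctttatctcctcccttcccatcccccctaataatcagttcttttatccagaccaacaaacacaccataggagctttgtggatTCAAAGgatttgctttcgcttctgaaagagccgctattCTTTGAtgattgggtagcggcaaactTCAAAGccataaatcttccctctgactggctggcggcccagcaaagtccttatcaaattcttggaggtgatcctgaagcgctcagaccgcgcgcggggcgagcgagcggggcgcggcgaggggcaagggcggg
A match is a description of letters and not of binding. The window runs from 250 bases before to 50 bases after the start, and 15.5% of all genes with windows hold the letters, against 3 of the 13 list members with a window.

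The largest stem cell difference was in SMOC2, a secreted calcium-binding protein of crypt-base cells. It read 4.15 and 4.30 in HT29 against 12.22 and 9.74 in Colo205, and its 2 probe sets gave -8.06 and -3.65. TNFRSF19, a WNT-induced receptor of the stem cell zone, read 3.41 and 3.86 in HT29 against 9.71 and 8.86 in Colo205, while its other probe set differed by -0.03. At these probe sets both genes were under the filter value in the HT29 arrays and clearly above it in the Colo205 arrays. LEF1, a nuclear partner of beta-catenin, differed by -5.03 at its strongest probe set and by 0.41 at the other. ASCL2, the stem cell master regulator, read 8.38 and 7.41 in HT29 against 11.44 and 10.83 in Colo205, and SP5 read 7.204 and 6.23 in HT29 against 10.08 and 9.58 in Colo205. LGR5, the R-spondin receptor that defines these cells, differed by -1.41 between the parents and by -4.97 between the derivatives. Some feedback genes were closer together between the parents. AXIN2 differed by -1.04 (its 4 probe sets gave -1.04 to 0.16), ZNRF3 by -0.98 and RNF43 by 0.15. Between the derivatives these genes differed by -0.36, -1.58 and 0.06. PROM1, the surface protein CD133, was the exception among the 10 and read 11.80 and 10.23 in HT29 against 9.48 and 4.39 in Colo205. OLFM4 was under the filter value in both parents.

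Among WNT ligands, receptors and secreted inhibitors, the difference lay in few genes. DKK1, a secreted inhibitor that blocks the LRP co-receptors, read 12.14 and 13.08 in HT29 against 4.14 and 3.92 in Colo205. It was among the strongest differences of all, at 8.001, or 6.42 with the low reading raised. FZD10, a Frizzled receptor, was high only in parental Colo205 among the 4 arrays and read 3.27 and 3.39 in HT29 against 8.42 and 3.71 in Colo205. LGR4, a relative of LGR5, was higher in HT29 by 1.58. The co-receptors LRP5 and LRP6 differed by -0.07 and -0.01. In all, of 22 past the filter, 2 read 2-fold or more higher in HT29 and 3 in Colo205, with a median difference of 0.14, and 0.04 between the derivatives. The share at 2-fold was 22.7% beside 19.0%.

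Members of the TGF-beta and BMP pathway stood on both sides of the comparison. BAMBI, a decoy receptor and WNT target, read 6.66 and 6.02 in HT29 against 11.82 and 11.62 in Colo205. INHBB, an activin subunit, read 5.44 and 5.44 in HT29 against 10.36 and 10.00 in Colo205, and BMP7, a BMP ligand, differed by -3.77. All 3 were high in the Colo205 arrays. HT29 had more TGFB2, with 8.201 and 8.25 in HT29 against 5.57 and 5.37 in Colo205, and more BMP2, with a difference of 2.36. ID1, a transcript that BMP signals induce, read 12.19 and 12.17 in HT29 against 9.49 and 9.52 in Colo205. Its relative ID3 went the other way, at -1.78, with an HT29 reading of 4.58 under the filter value. Of 34 members past the filter, 5 were 2-fold higher in HT29 and 6 in Colo205, and all 11 differed 2-fold in the same direction between the derivatives. The list median was 0.22.

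Targets of YAP and TEAD, the factors that respond to cell contact and tension, leaned to HT29. CCN2, a matricellular protein and standard YAP target, is shown by its promoter because the window holds 3 matches to the TEAD core, GGAATG on either strand, in capitals (RefSeq, GRCh38.p14, chr6:131951323-131951622, minus strand).
CCN2: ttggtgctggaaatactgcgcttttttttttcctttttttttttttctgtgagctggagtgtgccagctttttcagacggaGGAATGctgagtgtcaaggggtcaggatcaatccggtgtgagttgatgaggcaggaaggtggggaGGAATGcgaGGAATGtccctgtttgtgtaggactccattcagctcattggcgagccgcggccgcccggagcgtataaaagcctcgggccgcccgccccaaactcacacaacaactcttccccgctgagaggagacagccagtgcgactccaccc
Over all genes 16.7% of genes had these letters in a window, and among the YAP targets 6 of 13 with a window did. CCN2 read 10.08 and 9.92 in HT29 against 5.21 and 4.68 in Colo205. CCN1, its close relative, read 9.30 and 9.55 in HT29 against 5.10 and 4.79 in Colo205, with 1.78 and 4.20 at its 2 probe sets. Both genes were at or above 9.30 in the HT29 arrays and at or below 5.21 in the Colo205 arrays. ASAP1 and AMOTL2 followed at 2.61 and 1.45. IGFBP3, which YAP and many other factors regulate, was opposite and read 4.49 and 4.88 in HT29 against 9.12 and 9.70 in Colo205. Among the targets, of 20 past the filter, 6 read 2-fold or more higher in HT29 and 3 in Colo205, with a median difference of 0.50, and 1.47 between the derivatives. All 6 of those higher in HT29 again differed 2-fold there.

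Of 40 integrin, laminin, collagen and matrix genes past the filter, 11 were 2-fold or more higher in HT29 and 2 in Colo205. By any amount, 22 were higher in HT29 and 17 in Colo205. THBS1, thrombospondin 1, read 8.63 and 9.04 in HT29 against 5.44 and 4.85 in Colo205. The integrin subunits ITGB8 and ITGB5, each of which pairs with ITGAV, were higher in HT29 by 1.94 and 1.82, and ITGAV by 1.76. LAMA5, AGRN and HSPG2, components of the basement membrane, differed by 1.92, 1.70 and 1.85. SDC1, the epithelial heparan sulfate proteoglycan, was higher in Colo205, at -1.88. Of the 11 genes, 9 kept a 2-fold HT29 excess between the derivatives. The list median was 0.17, and 0.21 between the derivatives, with members in both directions. Without its sign the median difference was 0.68, beside 0.39 over all genes.

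Single cell surface genes of the epithelium differed strongly. CEACAM6, an adhesion protein often raised in colon cancer, read 12.46 and 13.78 in HT29 against 7.37 and 11.70 in Colo205. CEACAM5, the gene of carcinoembryonic antigen, was higher in HT29 by 2.26, and these were 2 of 7 CEACAM genes past the filter that differed 2-fold. CLDN1, a tight junction claudin, read 9.64 and 9.27 in HT29 against 5.33 and 4.90 in Colo205. CLDN1 was the gene at 4-fold among the 37 of epithelial adhesion and polarity. Among simple keratins, KRT23 was opposite to KRT20 and read 4.68 and 6.15 in HT29 against 10.14 and 9.35 in Colo205. Of 17 genes of stratified epithelium past the filter, 5 were 2-fold higher in HT29 and 2 in Colo205. The HT29 genes included the kallikreins KLK11 (5.80) and KLK10 (3.49) and S100A2 (2.37). KLK8 of the same kallikrein cluster was higher in Colo205, at -2.54. Mesenchymal genes were divided, with 3 of 17 at least 2-fold higher in HT29 and 4 in Colo205. PLAUR, the urokinase receptor, and CAV2, a caveolin, were higher in HT29 by 2.32 and 2.28, and TGFBI higher in Colo205, at -2.19.

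Of 38 receptor tyrosine kinases measured, 14 lay under the filter value in both parents. MET, the receptor of hepatocyte growth factor, read 13.20 and 13.58 in HT29 against 11.10 and 11.80 in Colo205. EGFR, the epidermal growth factor receptor, differed by 1.23, and its 8 probe sets ran from 0.07 to 1.25. FGFR2 was higher in HT29 at its strongest probe set by 3.43, while the 5 probe sets ran from -0.90 to 3.43. KIT, the stem cell factor receptor, was higher in Colo205 and read 4.60 and 4.80 in HT29 against 8.19 and 5.84 in Colo205. Of the ligands, PDGFC, a platelet-derived growth factor, read 10.62 and 10.90 in HT29 against 3.40 and 3.91 in Colo205. FGF19, an enteric hormone that reports bile acids, read 6.98 and 4.96 in HT29 against 10.07 and 10.11 in Colo205. PDGFC was thus high in the HT29 arrays and FGF19 in the Colo205 arrays. Among the receptors, of 24 past the filter, 5 read 2-fold or more higher in HT29 and 2 in Colo205, with a median difference of 0.25, and -0.01 between the derivatives. Among the ligands, of 25 past the filter, 1 read 2-fold or more higher in HT29 and 4 in Colo205, with a median difference of 0.04, and 0.23 between the derivatives.

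Transcripts that follow ERK activity had a median of -0.06 between the parents and -0.06 between the derivatives. Members at 2-fold were more often higher in HT29. The immediate early genes EGR1 and FOS, which growth factors induce within minutes, read 12.73 in HT29 and 9.19 in Colo205 and 11.81 in HT29 and 8.32 in Colo205. The derivatives kept the direction, at 2.21 and 1.82. DUSP5, a nuclear ERK phosphatase, was higher in HT29 by 2.30. DUSP4, its relative, was higher in Colo205, at -2.11, and SPRY2, a feedback inhibitor, at -1.39. DUSP6, the cytoplasmic ERK phosphatase, differed by only -0.44. In this list 8 of 25 members were 2-fold higher in HT29 and 3 in Colo205, beside background shares of 7.2% and 11.8%. The share in either direction was 44% beside 19.0%. Of the 8 genes 7, and of the 3 genes all 3, again differed 2-fold between the derivatives. Of 25 genes of RAS-ERK pathway proteins and their regulators past the filter, 4 were 2-fold higher in HT29 and 3 in Colo205. MAP3K8, a kinase upstream of ERK and 1 of the 3, had 2 probe sets of opposite direction, -1.07 and 1.55, so no direction is given for it.

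The insulin receptor substrates were exchanged between the lines. IRS1 read 10.27 and 10.33 in HT29 against 6.28 and 7.23 in Colo205. IRS2 read 8.94 and 9.14 in HT29 against 12.08 and 12.33 in Colo205. HT29 was thus higher for IRS1 and Colo205 for IRS2, on parental and resistant arrays alike. PHLPP2, a phosphatase that acts on AKT, was higher in HT29 by 3.15, and SGK1, a kinase related to AKT, by 1.85. Of 25 genes of the pathway downstream of these receptors, 6 were 2-fold higher in HT29 and 2 in Colo205, with a median of 0.04 between the parents and 0.12 between the derivatives.

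Eph receptors and ephrins, which set cell boundaries along the crypt, often differed 2-fold, in 9 of 15 members past the filter. EFNA5 and EFNA2, both membrane-anchored ligands, were higher in HT29 by 2.80 and 2.63, and the receptors EPHA2 and EPHA1 by 1.53 and 1.45. EPHA4 and EPHB6 were higher in Colo205, at -2.38 and -2.09, and the ligand EFNB2 at -1.74. The 4 and 5 genes on either side left a median of -0.10 between the parents and -0.01 between the derivatives. NOTCH pathway genes were divided as well, 4 against 4 of 24 at 2-fold. HEY1, a NOTCH-induced repressor, read 5.68 in HT29 and 8.89 in Colo205, while NRARP, a feedback inhibitor, was higher in HT29 by 2.01. HES1 was higher in parental HT29 by 1.44 and differed by -0.10 between the derivatives. The 11 Hedgehog genes past the filter held 0 at 2-fold.

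Interferon-stimulated genes carried large differences in both directions. The promoters of IFI27, high in parental HT29, and EPSTI1, high in Colo205, are shown because both hold the letters of the interferon response element, TTTC followed after any 2 bases by another TTTC, searched on both strands and in capitals (RefSeq, GRCh38.p14). The IFI27 window is chr14:94110486-94110785, plus strand, and the EPSTI1 window is chr13:42992192-42992491, minus strand.
IFI27: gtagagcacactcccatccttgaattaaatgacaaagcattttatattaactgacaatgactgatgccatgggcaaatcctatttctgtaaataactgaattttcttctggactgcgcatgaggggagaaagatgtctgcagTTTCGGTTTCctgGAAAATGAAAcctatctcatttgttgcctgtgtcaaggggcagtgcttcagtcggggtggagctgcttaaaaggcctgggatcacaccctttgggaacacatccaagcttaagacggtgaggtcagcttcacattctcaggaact
EPSTI1: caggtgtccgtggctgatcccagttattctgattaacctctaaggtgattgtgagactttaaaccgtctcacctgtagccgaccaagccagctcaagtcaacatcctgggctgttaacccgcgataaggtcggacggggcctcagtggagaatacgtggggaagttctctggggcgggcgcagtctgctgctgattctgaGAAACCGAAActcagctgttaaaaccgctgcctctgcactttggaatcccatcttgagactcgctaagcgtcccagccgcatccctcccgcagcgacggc
Of all genes, 4.37% hold these letters in a window. Of 32 interferon genes with a window 22 did, of which 9 read higher in HT29 and 13 in Colo205 by any amount. Of members 2-fold higher in HT29, 5 held the letters and 0 did not. Of those 2-fold higher in Colo205, 3 held them and 4 did not, XAF1 and UBE2L6 among the 4. EPSTI1, an interferon-induced gene, read 4.86 and 5.24 in HT29 against 11.65 and 11.26 in Colo205. XAF1, a pro-apoptotic interferon gene, read 4.63 and 4.27 in HT29 against 9.32 and 8.58 in Colo205, and UBE2L6, the conjugating enzyme for ISG15, was higher in Colo205, at -3.54. These genes were higher in both Colo205 arrays than in both HT29 arrays.

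The interferon genes that were 2-fold higher in HT29 did not reach 2-fold in that direction between the derivatives. IFI27, a small membrane protein that interferon induces, read 11.56 and 10.32 in HT29 against 7.30 and 10.70 in Colo205. IFI44 read 8.28 and 6.63 in HT29 against 4.18 and 5.72 in Colo205, and IFIT1, which binds foreign RNA, read 7.02 and 5.36 in HT29 against 4.45 and 7.26 in Colo205. Resistant Colo205 was higher than parental Colo205 for all 3. IFI44 stayed higher in HT29 between the derivatives, by 0.91, as did ISG15, a ubiquitin-like modifier, which went from 1.68 to 0.81, and IFITM1, a membrane protein that blocks virus entry, which went from 1.09 to 0.86. Of 5 members 2-fold higher in HT29, 0 reached 2-fold in the same direction between the derivatives, against 7 of 8 higher in Colo205. IFIT1 reached it in the opposite direction, at -1.90. Over the list of 39 past the filter the median was -0.29, and -0.75 between the derivatives.

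Antigen processing and presentation genes were higher in Colo205 more often than any other list of at least 15 members drawn in the plot of list shares. Of 25 members past the filter, 11 were 2-fold higher in Colo205 and 1 in HT29, 22 read higher in Colo205 by any amount, and the median was -0.75 between the parents and -0.66 between the derivatives. The immunoproteasome subunit PSMB9 read 5.89 and 4.99 in HT29 against 9.65 and 9.38 in Colo205, and PSMB8 read 7.88 and 7.79 in HT29 against 10.47 and 10.67 in Colo205. TAP1, which carries peptides into the endoplasmic reticulum, differed by -1.30. ERAP1, which trims those peptides, differed by -3.03. Among the presenting molecules, HLA-B differed by -1.83, HLA-C by -2.06 and HLA-E by -1.12. The HLA genes resemble each other closely, and a probe set named for 1 of them can also read another. NLRC5, the regulator of class I genes, differed by -1.82, with an HT29 reading of 5.47 under the filter value. Of the stress ligands, MICB was higher in Colo205, at -4.08, and MICA higher in HT29 by 1.71. Of the 11 genes, 10 differed 2-fold between the derivatives too.

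Cytokine and chemokine genes of the NF-kB response were divided, 4 against 5 of 27 at 2-fold. CXCL8, a neutrophil attractant, was higher in HT29 by 2.46. IL1RN, the interleukin 1 receptor antagonist, read 8.41 and 10.68 in HT29 against 4.90 and 4.77 in Colo205, and the decoy receptor IL1R2 was higher in Colo205, with 8.15 and 9.05 in HT29 against 11.01 and 10.34 in Colo205. Of the 5 genes 2-fold higher in parental Colo205, 1 was again 2-fold higher in Colo205 between the derivatives.

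Genes of programmed cell death were more often 2-fold higher in Colo205, 6 against 1 of 29. The median was -0.40 between the parents and -0.31 between the derivatives. BIK, a death-promoting member of the BCL2 family, read 6.79 and 7.43 in HT29 against 11.11 and 11.08 in Colo205. CASP1, the inflammatory caspase, read 6.29 and 6.65 in HT29 against 10.04 and 9.61 in Colo205. PMAIP1 and BCL2L11, also death-promoting, were higher in Colo205, at -2.18 and -1.35, and the decoy receptor TNFRSF10D at -2.34. All 6 again differed 2-fold between the derivatives. FAS, a death receptor, was the gene higher in HT29, by 1.30. Cell cycle and replication genes were close to even. Of 40, only TYMS and CCNE1 reached 2-fold, a share of 5% beside 19.0%, and both were higher in HT29, by 1.34 and 1.31.

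In central carbon metabolism, single genes differed in both directions. LDHB, the lactate dehydrogenase subunit that favours lactate use, differed by 8.62, or 8.12 with the low reading raised, and its 2 probe sets gave 8.62 and 10.20. LDHA, the subunit that favours lactate production, read 14.10 and 14.15 in HT29 against 14.01 and 13.87 in Colo205. These LDHA readings lie near the highest value of the table, 14.88, and whether the probe set was saturated was not tested. The monocarboxylate transporter SLC16A7, which carries lactate and pyruvate, was also higher in HT29 and read 8.17 and 8.25 in HT29 against 4.41 and 3.92 in Colo205. The glucose transporter SLC2A1 was higher in HT29 by 1.87, and SLC2A12 higher in Colo205, at -3.73. PCK1, the cytosolic enzyme that begins gluconeogenesis, read 3.58 and 4.02 in HT29 against 10.91 and 10.98 in Colo205. Its mitochondrial relative PCK2 was higher in Colo205, at -2.10. FBP1, a later enzyme of gluconeogenesis, went the other way, at 1.65. Of 37 members past the filter, 5 were 2-fold higher in each line, and the median was 0.08 between the parents and 0.20 between the derivatives. The tricarboxylic acid cycle and mitochondrial carriers had 2 of 30 at 2-fold, SLC25A1, the citrate carrier, at 1.34 and SUCLA2, a succinyl-CoA synthetase subunit, at -1.26.

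Fatty acid handling leaned to Colo205. PLIN2, the coat protein of lipid droplets, read 8.29 and 8.93 in HT29 against 12.10 and 12.49 in Colo205. EHHADH and ECI2, enzymes of peroxisomal oxidation, read 5.42 in HT29 and 8.95 in Colo205 and 5.88 in HT29 and 9.005 in Colo205. OXCT1, which lets cells burn ketone bodies, read 4.34 and 5.04 in HT29 against 8.56 and 6.28 in Colo205. The mitochondrial enzymes HADHB and ACADVL differed by -1.13 and -1.16 in the same direction. Over 34 members past the filter, 9 were 2-fold higher in Colo205 and 2 in HT29, with a median of -0.60 between the parents and -0.36 between the derivatives. Of these, 5 of the 9 and 0 of the 2 kept a 2-fold difference between the derivatives.

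Lipid synthesis genes differed in both directions. SCD5, a desaturase, read 3.83 and 3.64 in HT29 against 9.72 and 9.89 in Colo205, with -5.89 and -0.50 at its 2 probe sets. SCD, the main desaturase, read 13.03 in HT29 and 13.45 in Colo205 and did not reach 2-fold. ELOVL5, which lengthens polyunsaturated fatty acids, read 3.34 and 3.95 in HT29 against 11.65 and 11.25 in Colo205 at its strongest probe set, but its 3 probe sets ran from -8.31 to -0.36. The regulators MLXIPL and SREBF1 were higher in Colo205, at -2.57 and -1.504. GPAT3, an enzyme of triglyceride synthesis, and ELOVL7 were higher in HT29 by 2.77 and 1.71. Of 19 members past the filter, 4 were 2-fold higher in HT29 and 5 in Colo205.

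Phospholipases and eicosanoid enzymes differed 2-fold in 15 of 28 members past the filter, a share of 53.6% beside 19.0%. Of these, 10 were higher in HT29 and 5 in Colo205. Single phospholipases A2 set the lines apart, while others of the list read past the filter in both lines and did not reach 2-fold. PLA2G4A, the cytosolic enzyme that releases arachidonic acid, read 10.12 and 8.45 in HT29 against 3.88 and 3.22 in Colo205, the opposite of the secreted PLA2G2A. PLAAT3, a phospholipase of adipose tissue, read 12.03 and 11.62 in HT29 against 7.32 and 8.996 in Colo205. The cyclooxygenases PTGS2 and PTGS1 were higher in HT29 by 3.32 and 1.62, and the lipoxygenase ALOX5 by 2.43. PTGES, which makes prostaglandin E2, was higher in Colo205, at -1.28. Among phospholipases C, PLCB4 was higher in HT29 by 3.57 and PLCB1 in Colo205 at -2.78. Of the 10 and 5 genes, 8 and 4 again differed 2-fold between the derivatives.

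Amino acid genes were divided. ASS1, the enzyme that lets cells make arginine, read 7.95 and 9.32 in HT29 against 12.74 and 10.79 in Colo205. PHGDH, the first enzyme of serine synthesis, and ASNS, asparagine synthetase, were higher in Colo205, at -2.11 and -1.35. Between the derivatives, these 3 differences were smaller, at -1.47, -0.57 and -0.55. SLC1A4, a carrier of neutral amino acids, and both chains of the leucine carrier, SLC7A5 and SLC3A2, were higher in Colo205, at -3.24, -1.48 and -1.27. HT29 had more of SLC1A1, a glutamate and cysteine carrier, which read 11.02 and 11.67 in HT29 against 5.51 and 5.03 in Colo205. SLC7A2, a carrier of arginine and lysine, differed by 3.72, but by 0.63 between the derivatives. SLC7A11, the cystine carrier, was also higher in HT29, by 2.71, and CKB, the brain-type creatine kinase, by 3.20. In the list, of 41 past the filter, 5 read 2-fold or more higher in HT29 and 8 in Colo205, with a median difference of -0.19, and 0.14 between the derivatives.

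Nucleotide and NAD metabolism had 8 of 38 members at 2-fold, 4 in each direction, close to the background. ADA, adenosine deaminase, read 5.15 and 5.44 in HT29 against 10.02 and 10.11 in Colo205. MTAP, which salvages methylthioadenosine, read 11.33 and 11.15 in HT29 against 8.19 and 8.08 in Colo205. QPRT, an enzyme of NAD synthesis from tryptophan, was higher in Colo205, at -3.72, and NMNAT3 at -3.92. NNMT, which methylates nicotinamide, read 9.26 and 5.45 in HT29 against 5.88 and 5.59 in Colo205. For NNMT it was parental HT29 that stood apart from the other 3 arrays.

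Xenobiotic enzymes and NRF2 targets were more often 2-fold higher in Colo205, 19 against 5 of 60. The median was -0.30 between the parents and -0.42 between the derivatives. CYP4F3, a cytochrome that inactivates leukotriene B4, read 3.98 and 4.38 in HT29 against 9.22 and 8.86 in Colo205. EPHX2, soluble epoxide hydrolase, read 5.13 and 5.16 in HT29 against 9.14 and 7.77 in Colo205. UGT2B4, a glucuronosyltransferase of bile acids, read 3.05 and 2.94 in HT29 against 9.51 and 3.38 in Colo205, and was high only in parental Colo205. AKR1C1 and AKR1C2, near-identical hydroxysteroid reductases whose probe sets can read each other, were higher in Colo205, at -1.90 and -1.95, but the 4 probe sets of AKR1C1 ran from -3.55 to 0.35. HT29 had more AKR1B10, a retinal and aldehyde reductase, with 12.97 and 12.66 in HT29 against 8.84 and 9.87 in Colo205. CYP1B1, a cytochrome of the aryl hydrocarbon response, read 10.97 and 10.08 in HT29 against 5.39 and 6.31 in Colo205, and ALDH1A3, which makes retinoic acid, read 9.39 and 12.12 in HT29 against 5.64 and 5.12 in Colo205. Of the 19 genes, 15 again differed 2-fold between the derivatives, and all 5 higher in HT29 did.

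**Figure D3:**
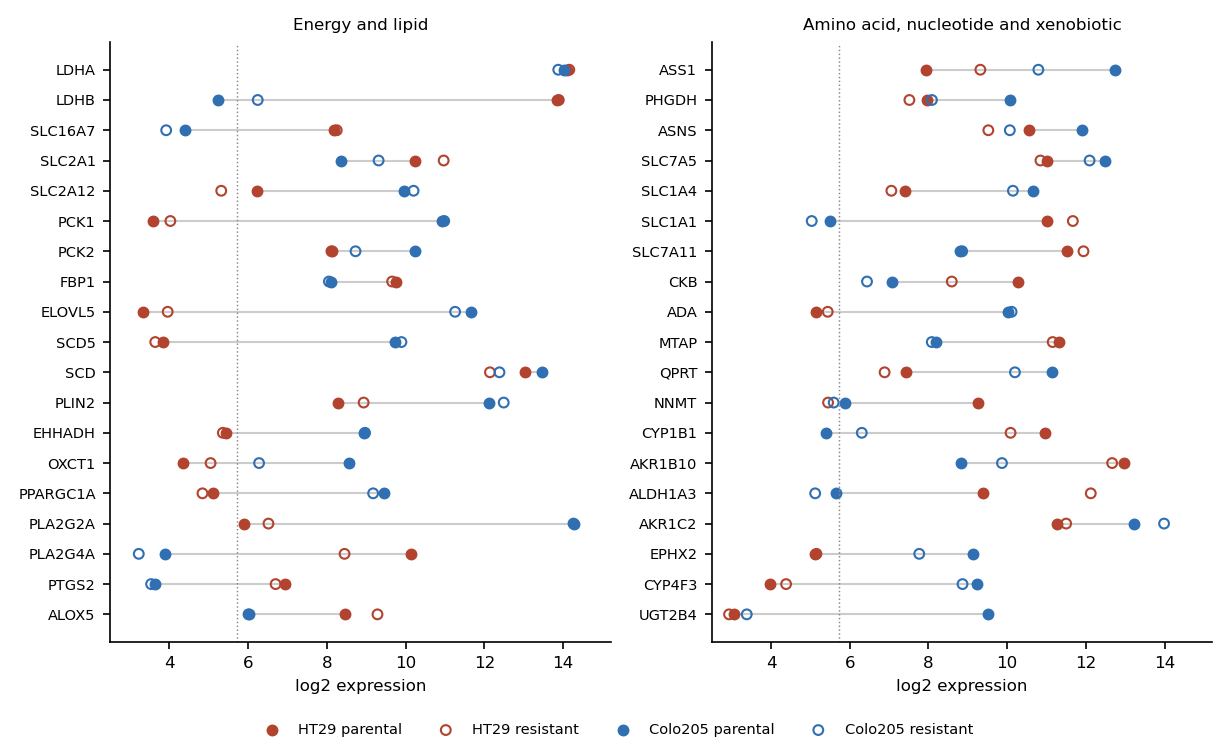
Log2 expression of 19 energy and lipid genes (left) and 19 amino acid, nucleotide and xenobiotic genes (right) in each of the 4 arrays, filled for parental and open for resistant, with a dotted line at the filter value of 5.73. LDHA reads near the top of the scale in all 4 arrays, LDHB is high in the HT29 arrays, PCK1, ELOVL5 and PLA2G2A are high in the Colo205 arrays, and UGT2B4 is high only in parental Colo205.

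Transporters followed no single direction. Of 20 ABC transporters past the filter, 6 were 2-fold higher in Colo205 and 1 in HT29. ABCA12, a lipid carrier, read 3.62 and 3.93 in HT29 against 8.14 and 7.59 in Colo205, and ABCC2, an exporter of conjugated bile pigments, was higher in Colo205, at -2.999. ABCG2, a drug and urate exporter, was the gene higher in HT29 and read 10.07 and 9.41 in HT29 against 7.23 and 7.06 in Colo205. Among ion and water transport genes, SLC4A4, a bicarbonate carrier, was higher in HT29 by 4.60 and AQP5, a water channel, by 2.59. The channels KCNK5 and AQP1 were higher in Colo205, at -2.504 and -2.47. Between the derivatives, SLC4A4 and AQP5 differed by 1.82 and 0.46, and KCNK5 and AQP1 by -2.10 and -4.86. In that list 7 of 29 were 2-fold or more higher in HT29 and 5 in Colo205. MT1E, a metallothionein, was higher in HT29 and read 12.55 and 11.35 in HT29 against 7.56 and 8.01 in Colo205. Its relatives MT1G and MT2A were higher in Colo205, at -1.13 and -1.004, but differed by only -0.07 and -0.59 between the derivatives. Of 24 iron, metallothionein and zinc genes past the filter, 3 were 2-fold higher in each line. Metallothionein genes are close copies, and their probe sets can read each other.

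Enzymes that build sugar chains on proteins and lipids differed 2-fold in 19 of 44 members, 13 higher in Colo205 and 6 in HT29. FUT8, which adds core fucose to N-glycans, read 6.76 and 7.65 in HT29 against 11.27 and 11.24 in Colo205. FUT3 and FUT6, the fucosyltransferases of Lewis antigens, were higher in Colo205, at -3.54 and -2.37, and B3GALT5, which makes their type 1 chain, at -3.59. FUT3 and FUT6 are close copies of each other. ST3GAL1, a sialyltransferase that caps mucin-type chains, was higher in HT29 and read 11.59 and 12.46 in HT29 against 6.95 and 7.54 in Colo205, and GALNT14, which starts such chains, differed by 4.53. Among extracellular proteases and inhibitors, 7 of 42 were 2-fold or more higher in HT29 and 13 in Colo205. By any amount, 22 were higher in HT29 and 20 in Colo205. SLPI, a leukocyte protease inhibitor of mucosa, read 7.18 and 7.87 in HT29 against 11.66 and 9.13 in Colo205. The cathepsins CTSS, CTSB and CTSD were higher in Colo205, at -3.81, -2.48 and -1.72, and TFPI, an inhibitor of coagulation, was higher in HT29 by 3.19.

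**Figure D4:**
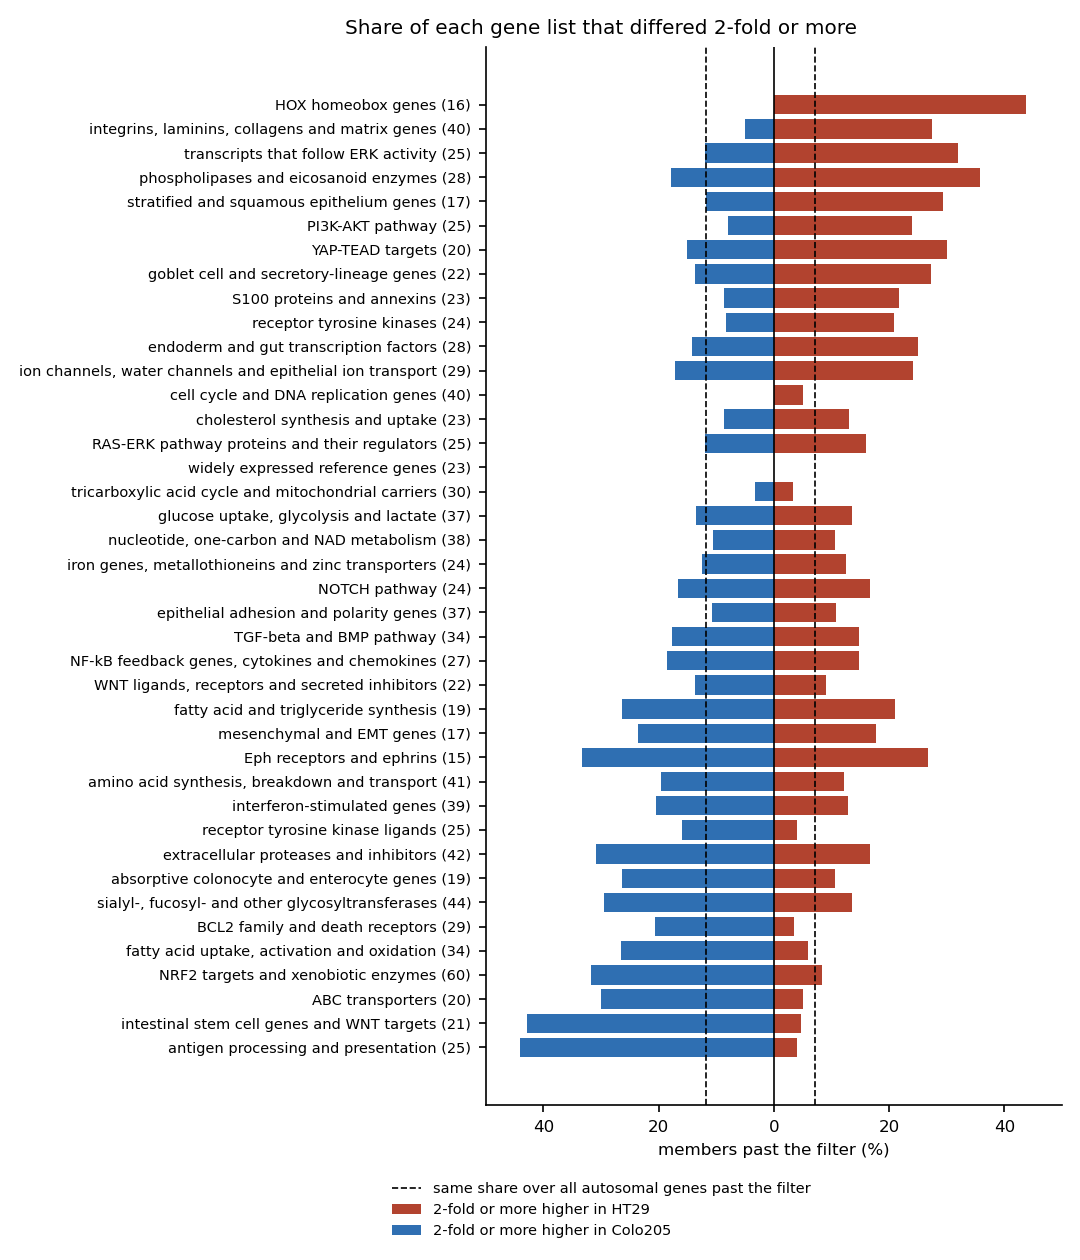
Share of the members past the filter, in percent, that differed 2-fold or more between the parental lines, to the right for genes higher in HT29 and to the left for genes higher in Colo205, for the lists with at least 15 such members (their number in parentheses). Dashed lines mark the shares over all 12807 genes, 7.2% and 11.8%; HOX genes reach farthest to the right and antigen genes farthest to the left, and reference genes show no bar.

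Beyond the lists, the 25 largest differences in each direction, among genes with probe sets of 1 sign, held further genes. On the HT29 side they ran from LDHB down to 5.17 for SLITRK6, and 24 of the 25 genes read under the filter value in Colo205. HMGN3, a nucleosome-binding protein, read 12.50 and 11.60 in HT29 against 4.04 and 3.80 in Colo205. PAPSS2, which makes the sulfate donor for matrix sugars, read 12.002 and 10.93 in HT29 against 4.72 and 4.61 in Colo205. PFN2, a profilin that binds actin monomers, read 12.03 and 12.07 in HT29 against 5.41 and 5.84 in Colo205. TM4SF4, a tetraspanin-like membrane protein, was the gene of the 25 with both parental readings past the filter and read 13.30 and 13.13 in HT29 against 6.09 and 7.69 in Colo205. Cell contact and cytoskeleton genes were further members, with NECTIN3, an adhesion protein, at 6.20, RDX, which links membrane to actin, at 6.20, and ARHGAP29, a GTPase-activating protein, at 6.11. F2R, the thrombin receptor, differed by 5.44 at 1 probe set and by 0.20 at its other. Between the derivatives 23 of the 25 differed 16-fold or more.

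The 25 genes on the Colo205 side ran from -9.16 to -5.92, and 24 of them read under the filter value in HT29. STYXL2, a phosphatase-like gene of muscle, read 4.59 and 4.47 in HT29 against 13.75 and 14.07 in Colo205. FAM3B, a secreted protein of pancreatic islets, read 4.54 and 4.71 in HT29 against 12.33 and 12.46 in Colo205, and NMU, the gut peptide neuromedin U, read 4.89 and 5.14 in HT29 against 11.37 and 11.32 in Colo205. LCK, a kinase best known in T cells, read 5.17 and 4.95 in HT29 against 12.28 and 12.56 in Colo205, while the T-cell genes CD3D, CD3E and CD2 were under the filter value as given above. PIWIL1, a protein of germ cells that binds small RNAs, read 4.26 and 4.33 in HT29 against 11.09 and 11.40 in Colo205. CHST11, CHST15 and CSGALNACT1, which build and sulfate chondroitin, differed by -6.52, -6.44 and -6.59. CD109, a surface protein that binds TGF-beta, read 3.47 and 3.86 in HT29 against 10.05 and 11.68 in Colo205. LPXN, an adhesion adaptor of blood cells, read 5.50 and 5.76 in HT29 against 12.58 and 12.38 in Colo205 at 1 probe set and differed by -0.02 at its other. Between the derivatives 21 of the 25 differed 16-fold or more, and GZMA and UGT2B4 differed by -0.30 and -0.45.

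By chromosome, the differences centred near 0 except on chromosome 13. Its 231 genes past the filter had a median of -0.81, with 10 genes 2-fold higher in HT29 and 96 higher in Colo205, and the median between the derivatives was -0.995. The next medians in size were 0.23 on chromosome 7, with 622 genes, and -0.22 on chromosome 14, with 435. SUCLA2, TNFRSF19 and EPSTI1, described above, lie on chromosome 13, and KCTD12 and SLITRK6 on the same chromosome were among the 25 genes highest in HT29. Copy number was not measured here.

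**Figure D5:**
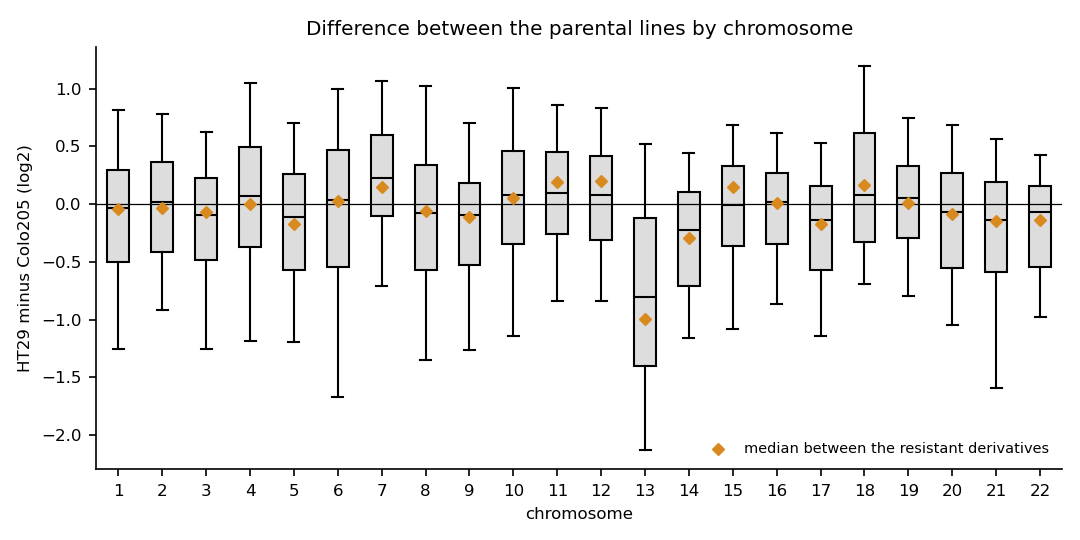
Difference between parental HT29 and parental Colo205 (log2, vertical) for the genes of each autosome (horizontal). Boxes span the 25th to 75th percentile with the median as a line, whiskers reach the 10th and 90th percentile, and orange diamonds are the medians between the resistant derivatives; chromosome 13 lies lowest, at -0.81 between the parents and -0.995 between the derivatives.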

How the data were processed

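Expression is given as log2 values of 54675 probe sets in the deposited table. That the scale is log2 was taken from the range of the values, 2.51 to 14.88. Per the submitters' processing notes MAS5 and RMA are the tools named, without a stated role or version. The method of background correction was not given in the sources used here. Precision is limited by the number of arrays.

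The platform annotation supplied with the table named 1 gene for 41091 probe sets, and 41037 of these matched the RefSeq gene table of GRCh38.p14, which gave symbol and chromosome. Other probe sets were left out, so HNF4A and most HOXA genes were not analysed here. Each gene took the probe set with the highest 4-array mean. Genes were kept if autosomal and if the higher parental reading was at or above 5.73, the median of the table. Differences were counted at fixed folds, without a test. Counting was tested on simulated data.

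The members and the 54 gene lists were chosen with earlier results of these data known. Genes were named by rule: the 25 largest differences in each direction with all probe sets past the filter of the same sign, list members with the list's count beside them, and 13 genes taken by name. Alternatives were other probe set choices, filters and scalings, readings raised to the filter value, X-linked genes added, and the derivatives. Promoter windows came from RefSeq, GRCh38.p14, and matched 10289 of the 12807 genes. Python 3.11.15, pandas 2.3.3, numpy 2.4.6 and matplotlib 3.10.9 were used.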

Additional observations from a re-analysis of the deposited data

Results flagged for a closer look

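For 6 list members the parental lines differed 2-fold or more in one direction and the resistant derivatives 2-fold or more in the opposite direction. With 1 array for each line and status, the change of direction was not tested. FOXD1, a forkhead factor, differed by -2.23 between the parents and by 1.53 between the derivatives. TIMP2, an inhibitor of matrix proteases, differed by -1.24 and 4.89. LCN2, an iron-binding protein of inflamed epithelium, differed by -1.23 and 1.45, and CCL20, a chemokine of the gut lining, by -1.18 and 1.07. GPX8, a peroxidase of the endoplasmic reticulum, differed by -1.04 and 1.82. IFIT1 was the member higher in parental HT29, by 2.56, and differed by -1.90 between the derivatives. Over all 12807 genes, 20 had such opposite differences.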

How the results depend on the processing

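The 2-fold counts stayed within 1.5 times the reported 922 and 1515 under every alternative run, from 719 to 1178 genes higher in HT29 and from 1065 to 1568 higher in Colo205. With both parental readings required to pass the filter, the 4-fold counts were 145 higher in HT29 and 255 higher in Colo205, since genes low in 1 line are then left out. No list median of 0.5 or more in size, of 54 lists, changed sign under an alternative, but between the derivatives 3 list medians moved by more than 0.52, the SD between probe sets of a gene, namely the simple keratins from -0.13 to 0.70, the NF-kB response from 0.09 to 0.86 and the YAP targets from 0.50 to 1.47. Of 265 genes named in the text, 58 moved by more than 0.52 with the median of their probe sets and 61 with low readings raised. Between the derivatives 144 moved, and 76 did with the mean of the parental and the derivative difference. These counts leave out genes at 2-fold that changed sign. They include smaller differences that changed sign, such as CDH1, from -0.56 between the parents to 0.06 between the derivatives. Of the named genes that differed 2-fold, MAP3K8 turned to 0.24 with the median of its probe sets. Between the derivatives, 10 of them had the opposite sign. These were FABP1 at 0.12, FOXD1 at 1.53, IFI27 at -0.38, IFIT1 at -1.90 and NNMT at -0.14. The others were HES1 at -0.10, TIMP2 at 4.89, LCN2 at 1.45, CCL20 at 1.07 and GPX8 at 1.82. With the mean of both differences TIMP2 was at 1.83, LCN2 at 0.11 and GPX8 at 0.39. The cause was not tested. No paired analysis was possible because each line and status has 1 array, and the replicate number 1 shared by all is only a name.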

Other observations

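Along the chromosomes, runs of neighbouring genes with a shared direction were described in windows of 25 genes past the filter whose median was at least 0.5 from 0. There were 11 such runs, of which 6 are described here. The other 5, on chromosomes 1, 6, 8 and 14, had medians between -0.83 and 0.88, the last for 47 genes on chromosome 8 of which 23 were 2-fold higher in HT29 and 5 in Colo205. On chromosome 6, 28 genes from UNC5CL to LOC401261 had a median difference of -1.63, with 21 of them 2-fold higher in Colo205 and 0 in HT29, and a median of -1.57 between the derivatives. On chromosome 1, 39 genes from FPGT to LRRC8B had a median of 0.81, and on chromosome 12, 31 genes from SSPN to GXYLT1 had 0.80. On chromosome 20, 58 genes from CDS2 to GZF1 had a median of -0.60. The windows were chosen from the same values, so these medians are a description. Chromosome 13 held a run of 116 genes from CDK8 to TBC1D4 with a median of -0.87 and another of 48 genes from OBI1 to ING1 with -1.004.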
